A study of Mus musculus with 24 samples.

Results

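The 10 genes described here encode proteins with which heart muscle moves calcium in each beat, and the hormones it releases into the blood. They are Nppa, Nppb, Ryr2, Atp2a2, Pln, Casq2, Slc8a1, Cacna1c, Sln and Hrc, taken by symbol from a table of 27179 genes, and all 10 were in the table and were tested. H3K4m3, trimethylation of histone H3 at lysine 4, was measured by chromatin immunoprecipitation and sequencing in mouse brain, heart, kidney and liver. Each organ had been flash frozen, or fixed in formalin and embedded in paraffin (FFPE). The values form 8 columns, 1 for each organ and preservation type, called libraries here. This gives 2 libraries for each organ and 4 for each preservation type. The labels name no strain, age, genotype or drug treatment for any group, and they do not say whether libraries came from separate animals. The p-values below therefore reflect only how much these libraries vary, and that variation may be technical.

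H3K4m3 marks the promoters of active genes and of genes poised for activity. When a heart muscle cell is excited, calcium enters through the L-type channel, whose pore is encoded by Cacna1c. This opens the ryanodine receptor Ryr2 and releases calcium from the sarcoplasmic reticulum (SR), the cell's internal store. Inside the store calcium is bound by calsequestrin 2 (Casq2) and by the histidine-rich protein Hrc. The pump SERCA2 (Atp2a2) returns calcium to the store and is restrained by the small membrane proteins phospholamban (Pln) and sarcolipin (Sln). The sodium-calcium exchanger NCX1 (Slc8a1) carries calcium out of the cell. Atrial natriuretic peptide (Nppa) and B-type natriuretic peptide (Nppb) are secreted by stretched heart muscle and lower blood volume and pressure. Several of these genes are not restricted to heart: Atp2a2 serves the calcium store of most cells, and Ryr2, Slc8a1 and Cacna1c act in neurons too.

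Promoter sequences from RefSeq (build GRCm38.p6) matched 8 of the 10 genes, all but Sln and Atp2a2. The sequences below are shown because H3K4m3 is a promoter mark and because the genes differ in it: the first 5 are genes whose fitted H3K4m3 difference in heart was above 1 on the log2 scale, the last 2 are genes with a difference near 0. Each runs 5′ to 3′ in the direction of the gene and, except for Nppb, covers the 250 bases before an annotated start. For Nppb the window before 1 annotated start reaches 114 bases into the annotated span of the gene. Only 30 bases of that window are shown, those that hold its MCAT and GATA matches, and they lie within this span. Capitals mark matches, on either strand, to 5 short motifs.

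Pln promoter (chr10:53337436-53337685, plus strand): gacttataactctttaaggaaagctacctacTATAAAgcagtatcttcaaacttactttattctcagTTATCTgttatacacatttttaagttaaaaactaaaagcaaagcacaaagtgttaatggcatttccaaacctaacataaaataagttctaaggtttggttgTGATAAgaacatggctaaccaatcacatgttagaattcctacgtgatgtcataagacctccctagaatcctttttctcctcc

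Hrc promoter (chr7:45335019-45335268, plus strand): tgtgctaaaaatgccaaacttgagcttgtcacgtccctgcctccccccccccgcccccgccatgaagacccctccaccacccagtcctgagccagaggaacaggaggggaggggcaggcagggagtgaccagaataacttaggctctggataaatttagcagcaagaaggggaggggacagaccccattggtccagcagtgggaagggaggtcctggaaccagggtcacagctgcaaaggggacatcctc

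Casq2 promoter (chr3:102086165-102086414, plus strand): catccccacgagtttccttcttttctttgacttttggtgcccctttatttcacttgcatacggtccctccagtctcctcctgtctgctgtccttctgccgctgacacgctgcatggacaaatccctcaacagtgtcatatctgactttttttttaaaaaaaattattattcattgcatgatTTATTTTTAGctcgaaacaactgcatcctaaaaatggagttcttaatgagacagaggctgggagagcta

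Nppa promoter (chr4:148000472-148000721, plus strand): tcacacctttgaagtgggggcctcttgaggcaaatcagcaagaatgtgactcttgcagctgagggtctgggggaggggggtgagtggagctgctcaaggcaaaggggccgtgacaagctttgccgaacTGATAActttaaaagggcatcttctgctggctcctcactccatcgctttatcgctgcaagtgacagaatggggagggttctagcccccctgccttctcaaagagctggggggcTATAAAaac

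Nppb stretch (chr4:147985794-147985823, plus strand): aGGAATGcagcTGATAAatcagAGATAAcc

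Ryr2 promoter (chr13:12106946-12107195, minus strand): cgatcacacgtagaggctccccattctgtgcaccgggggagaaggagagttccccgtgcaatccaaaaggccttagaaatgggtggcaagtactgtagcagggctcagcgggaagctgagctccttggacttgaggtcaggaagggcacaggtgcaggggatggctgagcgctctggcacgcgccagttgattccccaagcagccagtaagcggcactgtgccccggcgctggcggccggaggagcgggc

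Slc8a1 promoter (chr17:81738388-81738637, minus strand): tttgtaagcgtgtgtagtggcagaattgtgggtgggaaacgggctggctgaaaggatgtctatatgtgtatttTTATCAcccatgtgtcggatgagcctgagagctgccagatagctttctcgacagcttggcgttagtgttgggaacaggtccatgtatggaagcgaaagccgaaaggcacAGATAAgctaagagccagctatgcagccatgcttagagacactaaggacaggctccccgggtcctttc

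The GATA motif, AGATAA or TGATAA, named after a family of factors that includes cardiac members, occurred in 14.5% of all 22271 windows of the same length, from 18458 genes. It was found 2 times each in Pln, Nppb and Slc8a1 and once in Nppa. The TATA box, TATAAA, occurred in 11.4% of windows and was found 9 bases before the start in Nppa, 31 before it in Nppb and 219 before it in Pln. The MCAT motif, CATTCC, which occurred in 11.8% of windows, was found in Nppb, and a MEF2 motif, which occurred in 2.48%, in Casq2. A CArG box, present in 1.41% of windows, was found in none of the 8 genes, and Hrc, Ryr2 and Cacna1c held no match to any of the 5 motifs. These are matches of letters and say nothing of binding. The windows also differed in CpG dinucleotides, of which the median window held 9. Pln held 1, Hrc 3, Nppa 4, and Nppb and Casq2 5 each. Slc8a1 held 8 and Ryr2 14, and the 3 annotated windows of Cacna1c held 2, 48 and 5. The windows of the 5 genes with a fitted heart difference above 1 were thus all below the median. Of the other genes, Ryr2 was above it, Slc8a1 was below it, and Cacna1c was above it in 1 of its 3 windows. This grouping was made after the values were seen and carries no test.

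The shallowest library was frozen heart, with 1792394 reads, and the deepest FFPE kidney, with 5275085. In every organ the FFPE library had more reads than the frozen one. Levels are given as CPM, the deposited value without its log2, which is reads plus 0.5 scaled for library size. A count of 0 allows up to 3 reads, or between 0.537 and 1.69 CPM in these libraries, and this limit covers counting error only. In bulk tissue, fewer cells of a type and less signal per cell cannot be told apart. Heart was compared with the mean of the other organs in a model with organ and preservation, fitted with limma over all 25680 tested genes. A gene passes when its Benjamini-Hochberg adjusted p over those genes is under 0.05, and ± denotes the SE.

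Hrc and Pln were the members that passed as higher in heart. Hrc, on GRCm38.p6 chromosome 7 from 45335269 to 45338973 (gene ID 15464), measured 65.2 CPM in frozen heart and 69.7 CPM in FFPE heart. In the other organs it measured 13.9, 9.25 and 7.65 CPM in frozen brain, kidney and liver, and 27.6, 30 and 27.7 CPM in FFPE brain, kidney and liver. Both heart libraries lay above all 6 others, and the frozen libraries of the other organs were lower than their FFPE counterparts. Hrc was 4.01-fold higher in heart, a log2 difference of 2.00 ± 0.33 (95% confidence interval 1.30 to 2.70, 2 heart and 6 other libraries, adjusted p = 0.00608 with limma). The difference was 2.71 among the frozen libraries alone and 1.30 among the FFPE libraries alone. Without the frozen heart library it was 1.30 and did not pass (adjusted p = 0.434).

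Pln, on chromosome 10 from 53337686 to 53345999 (gene ID 18821), measured 56.2 CPM in frozen and 48.5 CPM in FFPE heart. It measured 24.3 and 19.2 CPM in frozen and FFPE brain, 24.1 and 25.1 CPM in kidney, and 17.9 and 16.5 CPM in liver. The heart libraries were the 2 highest, and frozen and FFPE values of an organ lay close together in all 4 organs. Pln was 2.5-fold higher in heart, at 1.32 ± 0.24 (0.81 to 1.84, adjusted p = 0.0119). The difference was 1.36 in frozen and 1.28 in FFPE tissue. Its size hardly moved when single libraries were left out, from 1.27 to 1.37, but it did not pass without frozen heart (adjusted p = 0.35), FFPE heart (0.114) or frozen kidney (0.0561). Cep85l overlaps Pln in the annotation, so reads in the shared stretch could be counted for either gene. Cep85l itself differed by 0.45 ± 0.18 and did not pass (adjusted p = 0.244).

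**Figure D1:**
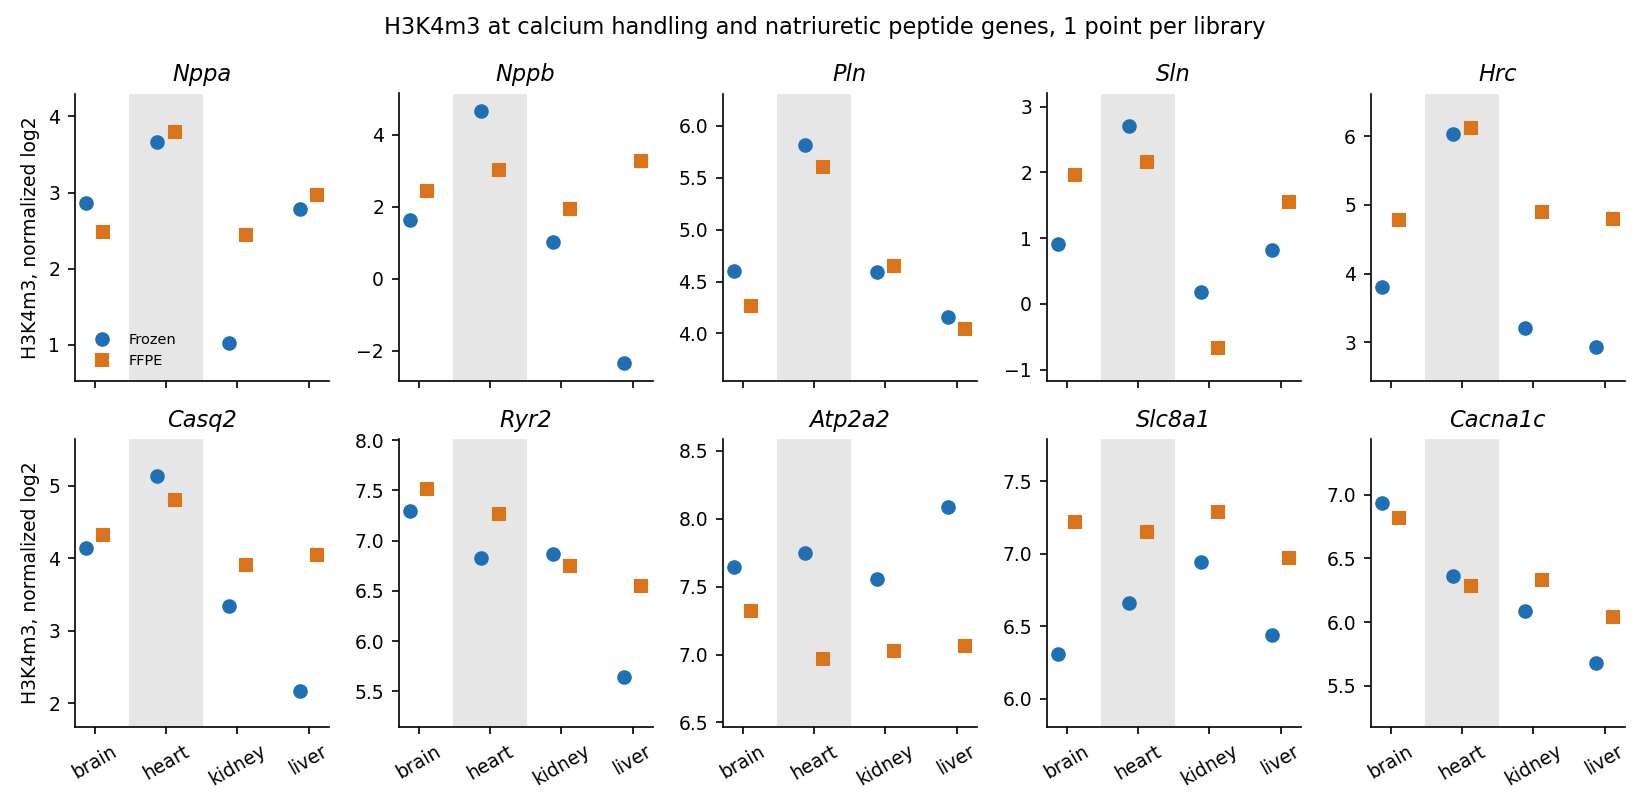
Deposited normalized log2 H3K4m3 value (y axis, its own range for each gene) of each of the 10 genes in the 8 libraries, by organ (x axis, heart shaded); circles are frozen and squares FFPE libraries. Both heart points lie above every other point for Nppa, Pln, Casq2, Sln and Hrc, while FFPE liver lies above FFPE heart for Nppb and brain is highest for Ryr2 and Cacna1c.

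Casq2, the main calcium buffer of the cardiac store (chromosome 3 from 102086415 to 102146514, gene ID 12373), measured 35.3 CPM in frozen and 28 CPM in FFPE heart. It measured 17.7 and 20 CPM in frozen and FFPE brain, 10.1 and 14.9 CPM in kidney, and 4.51 and 16.5 CPM in liver. Both heart libraries were above the others, and frozen liver, with 11 reads, was the lowest. The fitted difference of 1.32 ± 0.39 (0.48 to 2.16) did not pass (adjusted p = 0.0986). It passed after quantile normalization (1.27, adjusted p = 0.0253), without FFPE liver (1.61, adjusted p = 0.00345) and without frozen liver (1.03, adjusted p = 0.0487). It was 1.92 in frozen and 0.72 in FFPE tissue.

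Sln, which restrains the pump mainly in atria and skeletal muscle (chromosome 9 from 53850251 to 53853849, gene ID 66402), had very few reads, 70 over all 8 libraries. It had 11 reads in frozen and 14 in FFPE heart, 4 and 20 in brain, 2 and 3 in kidney, and 4 and 12 in liver. Scaled for depth, these were 6.49 and 4.44 CPM in heart, against at most 3.89 CPM elsewhere, in FFPE brain. Both heart libraries were highest, but the fitted difference of 1.64 ± 0.68 (0.18 to 3.09) did not pass (adjusted p = 0.262).

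The genes of the 2 peptide hormones lie 13517 bases apart on chromosome 4 and both had low counts. Nppa (148000722 to 148002074, gene ID 230899) measured 12.7 CPM in frozen heart, from 22 reads, and 13.9 CPM in FFPE heart, from 45 reads. It measured 7.27 and 5.59 CPM in frozen and FFPE brain, 2.03 and 5.46 CPM in kidney, and 6.87 and 7.82 CPM in liver. The heart libraries were highest and agreed within 0.13 on the log2 scale, while frozen kidney, with 4 reads, was lowest. The fitted difference of 1.31 ± 0.48 (0.27 to 2.34, 2.47-fold) did not pass (adjusted p = 0.197). It was 1.45 in frozen and 1.17 in FFPE tissue.

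Nppb (147985786 to 147987205, gene ID 18158) had the largest fitted difference of the 10 genes and the least even values. It had 44 reads in frozen heart, or 25.1 CPM, and 26 reads in FFPE heart, or 8.12 CPM. In frozen brain, kidney and liver it had 7, 4 and 0 reads, and in FFPE brain, kidney and liver 28, 21 and 41. The 0 in frozen liver allows up to 1.18 CPM, whereas FFPE liver, at 9.69 CPM, was above FFPE heart. The groups thus overlapped, and the difference of 2.51 ± 0.97 (0.43 to 4.58) did not pass (adjusted p = 0.224). It was 4.55 in frozen and 0.47 in FFPE tissue, and the former value depends on the 0.5 added to the 0 reads. Without FFPE liver it was 3.44 and passed (adjusted p = 0.00368), without frozen liver it was 1.58 (0.141), and it was 1.55 with precision weights that give less weight to low counts (adjusted p = 0.516).

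For the genes of the L-type channel, release channel, pump and exchanger, no difference between heart and the mean of the other organs passed. Ryr2, on chromosome 13 from 11553099 to 12106945 (gene ID 20191), measured 113 CPM in frozen and 154 CPM in FFPE heart. It measured 157 and 182 CPM in frozen and FFPE brain, 117 and 107 CPM in kidney, and 50 and 93.7 CPM in liver. Both brain libraries were above both heart libraries, and liver was lowest. Against the mean of the other organs Ryr2 differed by 0.28 ± 0.19 in heart (-0.14 to 0.69, adjusted p = 0.568).

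Cacna1c, on chromosome 6 from 118587240 to 119197384 (gene ID 12288), had the same order of organs. It measured 122 and 113 CPM in frozen and FFPE brain, 82.1 and 77.9 CPM in heart, 67.9 and 80.6 CPM in kidney, and 51.2 and 65.9 CPM in liver. Brain stood above every other library, and heart and kidney overlapped. The heart difference was 0.01 ± 0.18 (-0.37 to 0.38, adjusted p = 0.992), so an excess in heart above 0.38 on the log2 scale, or 1.3-fold, lies outside the interval. Dcp1b and 4931430N09Rik overlap Cacna1c and differed by 0.07 and 0.44, neither passing.

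Atp2a2, on chromosome 5 from 122453513 to 122502225 (gene ID 11938), measured 215 CPM in frozen and 125 CPM in FFPE heart. It measured 200 and 160 CPM in frozen and FFPE brain, 188 and 131 CPM in kidney, and 271 and 134 CPM in liver. The split ran between preservation types, with every frozen library above every FFPE library, and not between organs. The heart difference was -0.09 ± 0.17 (-0.45 to 0.27, adjusted p = 0.872).

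Slc8a1, on chromosome 17 from 81373105 to 81738387 (gene ID 20541), measured 101 CPM in frozen and 142 CPM in FFPE heart. It measured 79.2 and 149 CPM in frozen and FFPE brain, 123 and 156 CPM in kidney, and 86.9 and 125 CPM in liver. Kidney had the highest mean and liver the lowest, with every FFPE library above every frozen one. The heart difference was 0.04 ± 0.17 (-0.31 to 0.40, adjusted p = 0.943).

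In all, 2 of the 10 genes passed as higher in heart, Pln and Hrc, and none as lower. Among all tested genes 1.72% passed as higher. At an unadjusted p under 0.05 it was 6 of the 10 genes, and 15% of all tested genes. For 5 of the 10 both heart libraries lay above all 6 others, against 4.18% of all tested genes. The median difference was 1.31 over the 10 genes and -0.04 over all tested genes. The 10 genes were chosen with earlier results of these data known. Their shares beside those of all genes are therefore a description and no independent test. Without frozen heart 0 of the 10 passed, but then only 2 of all tested genes passed with limma. An unadjusted p under 0.05 was then found for 2 of the 10 and 1810 of all genes. Without FFPE liver 4 passed, Nppb and Casq2 being added, while the genes passing in either direction rose from 2.57% to 8.17% of all tested. Without FFPE heart or without frozen kidney 1 passed, Hrc, and the share of all genes was 0.829% and 0.72%. Without the preservation term no gene passed at all, with 4 of the 10 and 1358 of all genes at an unadjusted p under 0.05.

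The 10 genes fell into 2 sets by the size of their fitted heart difference. This division was made after their values were seen and carries no test. The 6 with fitted heart differences above 1 had 70 to 844 reads each over the 8 libraries, and the other 4 had 2298 to 4519. The annotated span was between 1353 and 60100 bases for the first 6, and 48713 bases for Atp2a2, 365283 for Slc8a1, 553847 for Ryr2 and 610145 for Cacna1c. The sources used here do not give which part of a gene was counted. Among all tested genes with a known span, the share that passed as higher in heart was 1.7% of 9493 genes under 10 kb, 1.67% of 12278 genes from 10 to 100 kb and 2.3% of 2481 longer genes. The size of the differences ran the other way, with a median absolute log2 difference of 0.38 under 10 kb and of 0.24 and 0.25 in the longer classes, and a 90th percentile of 1.21, 0.80 and 0.73.

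**Figure D2:**
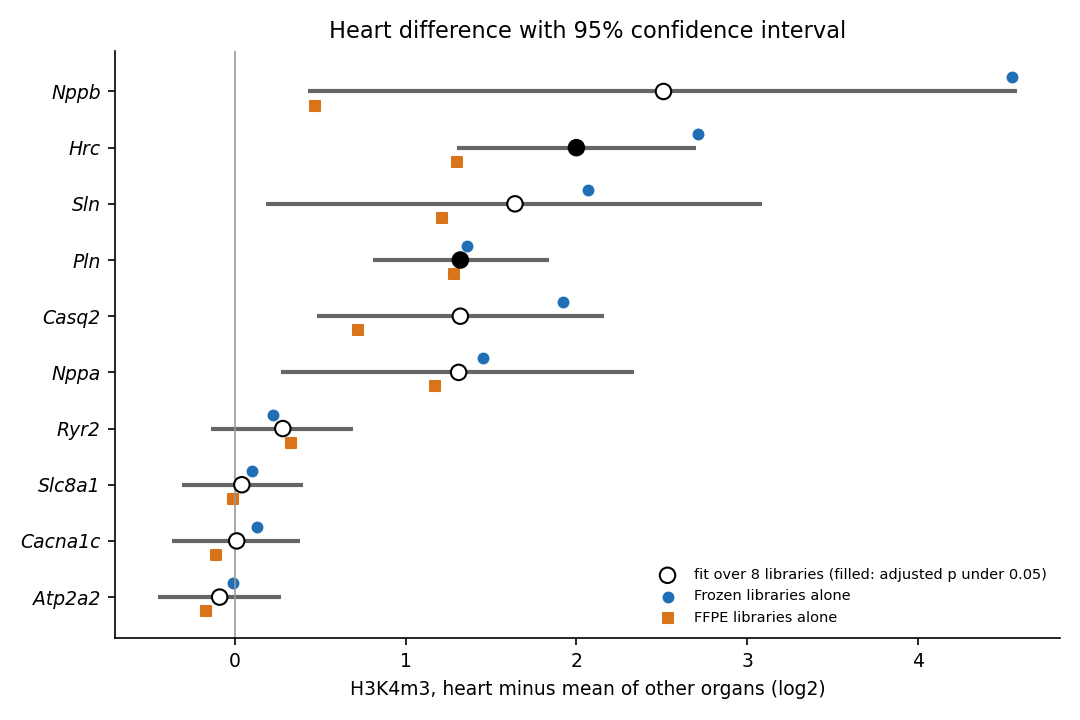
Difference in H3K4m3 between heart and the mean of the other organs on the log2 scale (x axis) for each of the 10 genes (y axis); large circles are the fit over 8 libraries with its 95% confidence interval, filled where the adjusted p is under 0.05, small circles the frozen and squares the FFPE libraries alone. Pln and Hrc are filled, at 1.32 and 2.00, and Ryr2, Slc8a1, Cacna1c and Atp2a2 lie between -0.09 and 0.28 with intervals that include 0.

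Each organ was then set against each other organ in the same model. Against brain, Pln (1.27 ± 0.29, adjusted p = 0.0175) and Hrc (1.78 ± 0.40, adjusted p = 0.0146) were higher in heart, 2 of 10 where 6.32% of all genes passed in either direction. Cacna1c was lower by value, at -0.55 ± 0.21, and did not pass (adjusted p = 0.182). Neither call held without frozen heart, FFPE brain or frozen brain, and only that of Hrc held without FFPE heart. Fewer of all genes passed in each of these runs as well.

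Against kidney only Hrc passed, at 2.02 ± 0.40 (adjusted p = 0.0299), 1 of 10 where 0.962% of all genes passed. Pln differed by 1.08 ± 0.29 (adjusted p = 0.129), Nppa by 2.00 ± 0.59 (adjusted p = 0.172) and Sln by 2.68 ± 0.83 (adjusted p = 0.2). The Hrc call was lost with precision weights, with no filter on low values, and without either brain library, either kidney library or frozen heart. Fewer of all genes passed in each of these alternatives, and almost none without frozen heart or frozen kidney, so these losses are not particular to Hrc. Without either liver library Pln, Casq2 and Hrc all passed, and more of all genes passed too.

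Against liver 4 of 10 passed as higher in heart, where 6.76% of all genes passed in either direction. They were Hrc (2.21 ± 0.40, adjusted p = 0.00526), Pln (1.61 ± 0.29, adjusted p = 0.00558), Casq2 (1.87 ± 0.48, adjusted p = 0.0304) and Ryr2 (0.95 ± 0.24, adjusted p = 0.026). None passed without frozen heart, and Pln and Hrc alone did without frozen liver. Casq2 was also lost without frozen brain, with precision weights and with no filter on low values. Without FFPE heart Nppb passed and Ryr2 did not, and without FFPE liver Nppb passed in addition. In each of these alternatives fewer of all genes passed than in the main fit, except without FFPE liver, where more did.

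Between brain and liver Ryr2 and Cacna1c passed, both higher in brain. Ryr2 differed by 1.31 ± 0.24 (2.47-fold, adjusted p = 0.00189) and Cacna1c by 1.01 ± 0.21 (2.02-fold, adjusted p = 0.00551), 2 of 10 where 12.9% of all genes passed, a share near that of the members. Both calls were lost without frozen brain, where fewer of all genes passed. Without FFPE liver, where more of all genes passed, Nppb and Casq2 passed too. Between brain and kidney 0 of the 10 passed with limma, where 6.29% of all genes did. At an unadjusted p under 0.05 it was 2, where 15.8% of all genes were, namely Cacna1c at 0.67 ± 0.21 (adjusted p = 0.0922) and Ryr2 at 0.60 ± 0.24 (adjusted p = 0.194), and both passed without either liver library. Between kidney and liver 0 of the 10 passed with limma, where 3.32% of all genes did. At an unadjusted p under 0.05 it was 1, where 14.1% of all genes were, namely Ryr2 at 0.71 ± 0.24 (adjusted p = 0.143), which passed after quantile normalization. Nppb and Ryr2 passed there without FFPE liver. More of all genes passed in that run, after quantile normalization and, for brain against kidney, without either liver library.

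The order of the organ means can be read against these tests. Ryr2 and Cacna1c ran from brain over heart and kidney to liver, and for both no step between neighbours in that order passed. Hrc, Casq2 and Nppb ran from heart over brain and kidney to liver, and only the step from heart to brain for Hrc passed. Pln ran from heart over kidney and brain to liver, Nppa from heart over liver and brain to kidney, and Sln from heart over brain and liver to kidney, with no passing step between neighbours. For Atp2a2 and Slc8a1 no pair of organs passed, so their order is not separated by these libraries.

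Between FFPE and frozen tissue 3 of the 10 genes passed, where 37.8% of all genes passed in either direction. Hrc was 2.23-fold higher in FFPE tissue, at 1.16 ± 0.28 (4 FFPE and 4 frozen libraries, adjusted p = 0.0066 with limma), higher in 4 of 4 organs. The FFPE minus frozen difference of Hrc was 0.99 in brain, 0.10 in heart, 1.70 in kidney and 1.85 in liver. Heart was thus the organ in which the preservation types were closest. Slc8a1 was 1.48-fold higher in FFPE tissue, at 0.57 ± 0.14 (adjusted p = 0.00808), with differences of 0.91, 0.49, 0.35 and 0.53 in brain, heart, kidney and liver. These 2 of 10 compare with 16.5% of all genes that passed as higher in FFPE tissue.

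Atp2a2 was lower in FFPE tissue, at -0.66 ± 0.15 (0.631-fold, adjusted p = 0.00371), with differences of -0.32, -0.78, -0.53 and -1.02 in brain, heart, kidney and liver. This 1 of 10 compares with 21.3% of all genes that passed as lower. The call of Atp2a2 held with equal library medians (-0.80, adjusted p = 0.00489). After quantile normalization, which gives all libraries the same distribution, Atp2a2 differed by -0.12 (adjusted p = 0.464), while Ryr2 (0.78, adjusted p = 0.000771) and Cacna1c (0.49, adjusted p = 0.016) passed as higher. The median over all genes of this comparison was 0.18 as deposited, 0.04 with equal library medians and 0.00 after quantile normalization. With equal medians Slc8a1 differed by 0.43 and did not pass (adjusted p = 0.0762), nor did it without FFPE brain or frozen brain (0.45, adjusted p = 0.0626 and 0.0601). Hrc was 0.98 without FFPE kidney (adjusted p = 0.0512). Nppb passed only without FFPE heart (2.45, adjusted p = 0.0496), and its difference was 0.03 without either liver library. Chromatin was prepared differently from frozen and from FFPE tissue, and 2 kit families are named without assignment. FFPE libraries also had more reads than frozen ones in every organ. Their log2 values over all genes spread less, with a standard deviation of 1.988 to 2.128 against 2.399 to 2.619 in frozen libraries. Preservation, preparation, kit and depth therefore cannot be told apart, and the part of this spread in the differences was not tested.

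**Figure D3:**
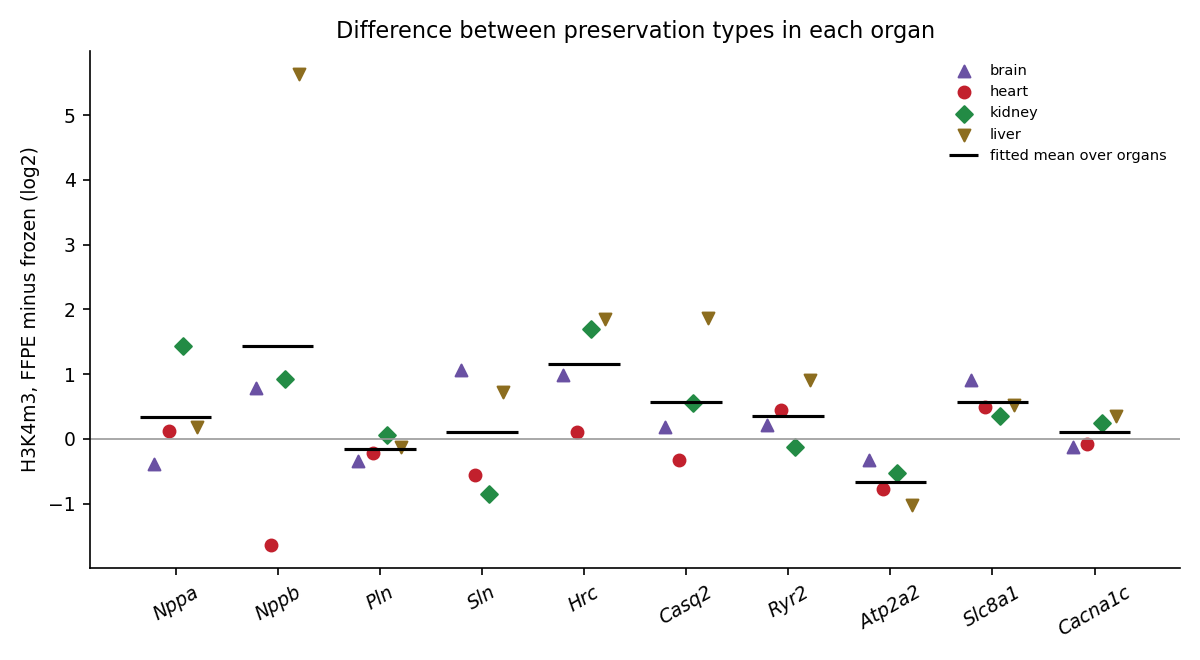
Difference in H3K4m3 between the FFPE and the frozen library of each organ on the log2 scale (y axis) for each of the 10 genes (x axis); symbols are organs and the black line is the fitted mean over organs. Hrc and Slc8a1 lie above 0 and Atp2a2 below 0 in all 4 organs, and Nppb spans from -1.63 in heart to 5.63 in liver.

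Whether the heart difference was of another size in FFPE than in frozen tissue was tested with a heart-by-preservation term, which left 2 residual degrees of freedom. With limma 0 of all tested genes passed (0% of them), and 1180 (4.6%) had an unadjusted p under 0.05, among them 2 of the 10. These were Nppb, whose heart difference was smaller in FFPE tissue by -4.08 ± 1.69 (unadjusted p = 0.0333, adjusted p = 0.967), and Hrc, at -1.42 ± 0.55 (unadjusted p = 0.0257, adjusted p = 0.967). For Pln the interval ran from -1.16 to 1.00 around -0.08.

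Genes that work with these proteins were described through 6 lists. Among all tested genes, 1.72% passed as higher in heart and 219 of 25680 as lower, with a median difference of -0.04. Of 16 release and storage partners in the SR, 1 passed as higher in heart and 0 as lower, with a median difference of 0.26. It was Jph2, junctophilin 2, which holds the store against the cell membrane, 3.98-fold higher at 1.99 ± 0.30 (adjusted p = 0.00383). Its heart libraries measured 6.20 and 6.73 on the log2 scale against at most 5.28 elsewhere. Fkbp1a, an immunophilin that binds ryanodine receptors, moved most the other way, at -0.17 ± 0.22 (adjusted p = 0.791). Of 12 pump regulators and kinase partners in the table, of 15 listed, 3 passed as higher and 0 as lower, with a median of 0.63. Pde3a, a cyclic AMP phosphodiesterase of the pump's complex, was 2.72-fold higher, at 1.44 ± 0.20 (adjusted p = 0.00296). Ppp1r3a, a glycogen-associated subunit of protein phosphatase 1, was 2.31-fold higher, at 1.21 ± 0.26 (adjusted p = 0.0284). Mrln, whose product myoregulin restrains the pump in skeletal muscle, was at -0.55 ± 0.52 (adjusted p = 0.701).

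Of 10 subunits and regulators of the L-type channel, 2 passed as higher and 0 as lower, with a median of 0.39. For all tested genes the share passing as higher was 1.72% and the median -0.04. Both encode small GTP-binding proteins that inhibit the channel: Rrad was 3.16-fold higher, at 1.66 ± 0.27 (adjusted p = 0.00608), and Rem1 2.68-fold higher, at 1.42 ± 0.29 (adjusted p = 0.0201). The other 8 genes, among them the beta and alpha-2-delta subunits, did not pass, and Cacna2d2 was lowest, at -0.05 ± 0.27. Of 12 genes of natriuretic peptide processing and reception, 3 passed as higher and 0 as lower, with a median of 0.30. Npr1, the receptor that makes cyclic GMP on binding either hormone, was 1.99-fold higher, at 0.99 ± 0.20 (adjusted p = 0.0202). Prkg1, a cyclic GMP-dependent kinase, was 1.89-fold higher, at 0.92 ± 0.22 (adjusted p = 0.0415), and the clearance receptor Npr3, named after its values were seen, 1.91-fold (adjusted p = 0.0435). Pcsk6, a convertase, was lower by value, at -0.92 ± 0.23, and did not pass (adjusted p = 0.0532).

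Paralogs of the members and other calcium routes gave few or no calls. Of 11 paralogs 1 passed as higher and 0 as lower, with a median of 0.06. It was Casq1, the calsequestrin best known from skeletal muscle, 2.49-fold higher at 1.32 ± 0.32 (adjusted p = 0.0424), the same fitted size as Casq2. Cacna1f, a retinal L-type channel, was at -0.72 ± 0.29 (adjusted p = 0.244). Of 19 genes of T-type channels, IP3 receptors, store-operated entry and other calcium transport, 0 passed with limma and 0 had an unadjusted p under 0.05, with a median of 0.07. Of all tested genes 1.72% passed as higher and 15% had an unadjusted p under 0.05. The smallest p-values in that list belonged to Atp2b2 (-0.41 ± 0.25, adjusted p = 0.493) and Orai1 (0.25 ± 0.19, adjusted p = 0.616). Between preservation types 8 of the 11 paralogs passed as higher in FFPE tissue, with a median of 0.73, where 16.5% of all genes passed as higher with a median of 0.18. The difference between paralogs and members was not tested. Of the passing genes named in these lists, with Npr3 not examined, none passed without frozen heart or without the preservation term. Without that term the differences were of the same size, while without frozen heart that of Jph2 was 1.22, that of Casq1 0.76 and that of Prkg1 0.49. Rem1 was also lost without FFPE heart or either kidney library, and Npr1 and Ppp1r3a without those or frozen brain. Casq1 and Prkg1 were lost without any 1 of the brain, heart or kidney libraries, with precision weights and with no filter on low values. Prkg1 was lost with equal library medians too. Fewer of all genes passed in each of these alternatives.

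**Figure D4:**
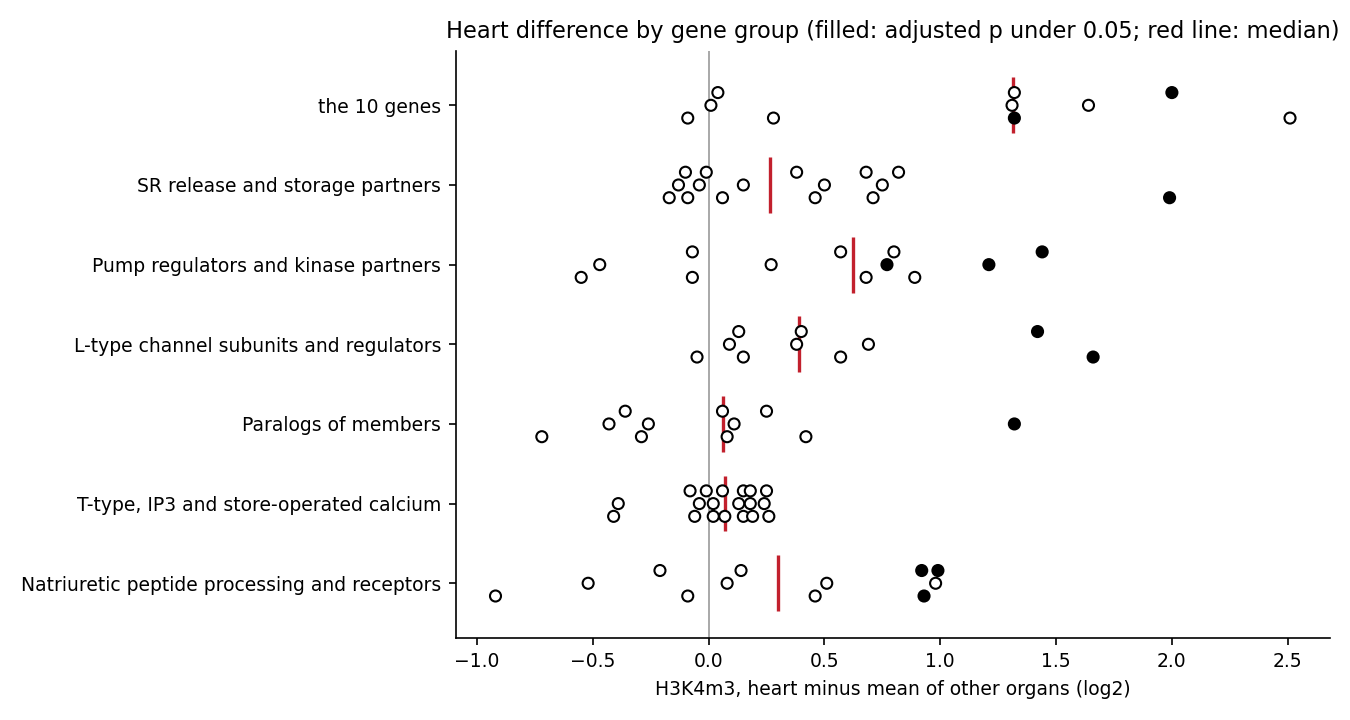
Difference in H3K4m3 between heart and the mean of the other organs on the log2 scale (x axis) for every tested gene of the 10 members and of the 6 lists (y axis); points are genes, filled where the adjusted p is under 0.05, and red lines are medians. The medians run from 0.06 for the paralogs to 1.31 for the 10 genes, and each list but the T-type, IP3 and store-operated genes holds at least 1 filled point.

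Markers of cell types were measured alongside. Cardiomyocyte markers passed as higher in heart for 5 of 8, with a median of 2.18, and their summed level was 403 to 482 CPM in heart against 54.9 to 192 CPM elsewhere. Endothelial markers passed for 5 of 6, with a median of 1.29 and sums of 503 to 578 CPM in heart against 125 to 319 CPM elsewhere. Fibroblast and smooth muscle markers passed for 2 of 7 (277 to 299 CPM against 134 to 282 CPM), atrial markers for 1 of 7, Kcna5 (358 to 401 CPM against 213 to 382 CPM), and ventricular markers for 1 of 4, Gja1 (128 to 149 CPM against 33.3 to 70.8 CPM). Myl2 is in both the cardiomyocyte and the ventricular list. Skeletal muscle markers, which bear on Sln and Casq1, passed for 0 of 8 with limma and had an unadjusted p under 0.05 for 1 (95.4 to 158 CPM in heart against 58.9 to 190 CPM). Hepatocyte markers passed as lower for 1 of 5, and neuron and kidney tubule markers for 0 of 5 each with limma, where 2 and 3 had an unadjusted p under 0.05. Of all tested genes 1.72% passed as higher and 219 of 25680 as lower, and 15% had an unadjusted p under 0.05 in either direction. No marker of any list was at 0 reads in every library. The part of these cell types in the differences above was not tested.

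No tested gene next to a member passed in heart against the mean of the other organs. Of the members set beside neighbours here, only Hrc passed itself, so the others give no contrast in passing. Clcn6, 2185 bases from Nppa, differed by -0.19 ± 0.20. Ppfia3, 153 bases from Hrc, differed by 0.34 ± 0.18 (adjusted p = 0.413), and Trpm4, 1198 bases away on its other side, by 0.51 ± 0.26 (adjusted p = 0.378). Vangl1, 7069 bases from Casq2, came closest, at 0.93 ± 0.24 (adjusted p = 0.0592 with limma). That p was below the one of Casq2 itself (1.32 ± 0.39, adjusted p = 0.0986). Slc35f2, next to Sln, was at -0.82 ± 0.33 (adjusted p = 0.248) and Anapc7, next to Atp2a2, at -0.02 ± 0.18.

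Likeness of pattern was measured by Pearson's r over the 8 libraries, as a description, since the libraries share organs, preservation and depth. Of the 10 genes, Casq2 was most like the mean of all 10 (r = 0.976, a mean that includes it). Hrc (0.930) and Nppb (0.918) followed, and Atp2a2 was least like it (-0.423). Values were centred for each gene but not scaled, so this mean gives most weight to Nppb. The log2 range of Nppb was the widest, from -2.35 in frozen liver, with 0 reads, to 4.65 in frozen heart. Nppb and Casq2 had r = 0.95, Ryr2 and Cacna1c 0.86, and Atp2a2 and Slc8a1 -0.81. Outside the 10, the genes most like their mean were Galnt15 (0.981), Dab2ip (0.977), Sulf1 (0.973), the ventricular light chain gene Myl2 (0.965) and A630072L19Rik (0.963). The gene most like Pln was Cyb561 (0.977), which passed as higher in heart at 1.15 ± 0.24 (adjusted p = 0.0234), and the gene most like Casq2 was Gja3 (0.989). Hrc was most like Gm17455 (0.991), Nppa Colec11 (0.962), Nppb Bean1 (0.989) and Sln 1700020A23Rik (0.929). Ryr2 was most like Arhgap20 (0.972), Cacna1c Gprasp1 (0.997), Atp2a2 D030056L22Rik (0.989) and Slc8a1 Fmo9 (0.988).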

How the data were processed

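The labels describe 24 samples, 12 H3K4m3 (4 frozen, 8 FFPE) and 12 input. The columns name no antibody or replicate and were taken as H3K4m3 from the series' and table's titles. The sources used here do not say whether an FFPE column is 1 of 2 samples or merges them, and the input samples were not used here. The authors deposited log2 values per gene. Per the submitters' processing notes, Bowtie2, featureCounts, limma and mm10 were used, with no versions given. The deposited log2 values held reads plus 0.5 relative to a library size, and undoing this gave whole reads, within 0.001, for 100% of values. Of the gene IDs, 25275 matched the GRCm38.p6 RefSeq table used for coordinates, and 1275 genes had no symbol.

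Genes with a mean log2 of at least 0 (25680) were tested with limma 3.58.1 in R 4.3.3 (organ and preservation, intensity trend, 3 residual degrees of freedom). There were 9 comparisons, with Benjamini-Hochberg adjustment over the tested genes within each comparison and none across comparisons. Sets of genes were described by counts and medians. Motifs and figures were made in Python 3.11.15. The 10 genes, the 6 gene lists and the 9 marker lists were chosen with earlier results of these data known. Named list genes were, for each list, up to 2 passing in each direction with the smallest p, the member moving most the other way or, where none passed, the 2 with the smallest p. Not every passing list gene is reported here. Alternatives were quantile normalization, median scaling, precision weights from recovered reads, no filter, a minimum of 2, no preservation term, each preservation type alone and each library left out.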

Additional observations from a re-analysis of the deposited data

How the results depend on the processing

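With 1 library for each organ and preservation type, any interaction of the 2 counts as spread, and Nppa, Nppb and Sln rest on 197, 171 and 70 reads in all. Differences for these genes smaller than their intervals were not detectable at this depth. No paired analysis was possible because the columns carry no replicate numbers, and FFPE and frozen libraries were matched only by the organ term of the model.

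The count of the 10 genes that passed in heart against the mean of the other organs was 2, 0 without the preservation term, and 0 to 4 with single libraries left out. The same ranges were 0 to 2 against brain (2 with all libraries), 0 to 3 against kidney (1), 0 to 5 against liver (4), 0 to 2 for brain against kidney (0), 0 to 4 for brain against liver (2), 0 to 2 for kidney against liver (0), 2 to 4 for FFPE against frozen (3) and 0 to 0 for the change of the heart difference (0), where 2 of the 8 runs could not be fitted. Of all genes 14 and 15 passed that last test without frozen or FFPE brain, and 6 without either liver library. Heart against kidney gave 0 with precision weights and 0 with no filter, and kidney against liver gave 1 after quantile normalization. The minimum of 2 left 8 of the 10 genes tested, without Nppb and Sln.

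Of 604 values of single genes under an alternative, 500 were counted as unchanged. For a fit this meant the same direction and side of the threshold. For each preservation type alone, which has no test, it meant a move smaller than the spread. The unchanged values thus include sign changes in FFPE tissue alone, of Slc8a1 (-0.01) and Cacna1c (-0.11). Of the rest, 53 no longer passed, 10 newly passed, 6 moved by more than the spread without a test and 35 fits changed sign. All of the sign changes were in values that did not pass. In heart, Cacna1c was -0.03 with median scaling and -0.02 with precision weights. In FFPE against frozen, Nppa was -0.37 and Sln -1.02 after quantile normalization, and Cacna1c was -0.03 and Sln -0.04 with median scaling. In the change of the heart difference, Nppa was 0.08 and Pln 0.40 after quantile normalization, and Pln was 0.01 with median scaling. With single libraries left out, Slc8a1 ran from -0.03 to 0.12, Cacna1c from -0.11 to 0.13, Atp2b2 from -0.84 to 0.03, Cacna2d2 from -0.35 to 0.25 and Fkbp1a from -0.55 to 0.21 in heart. Likewise Nppa ran from -0.02 to 0.58 and Sln from -0.22 to 0.41 in FFPE against frozen, and Nppa from -0.67 to 0.23, Ryr2 from -0.12 to 0.40, Pln from -0.18 to 0.02 and Slc8a1 from -0.23 to 0.05 in the change of the heart difference.

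Over all genes, 442 passed as higher and 219 as lower in heart, a share of 66.9% higher, and 382 and 35 with precision weights (91.6%). All genes that passed in heart numbered 661, and 1382 after quantile normalization. In FFPE against frozen 4240 were higher and 5477 lower (43.6% higher), and 3027 and 6241 with median scaling (32.7%). The cause of these changes was not tested.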
